A study of Mus musculus with 36 samples.

Results

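Cell cycle and DNA replication genes were examined in mouse mesenteric lymph nodes after treatment with the soluble lymphotoxin-beta receptor. The set holds 42 genes of replication, mitosis and proliferation, taken from a list of gene symbols, out of 18193 genes that had a probe set under a symbol of their own. Of the 42, 41 had such a probe set and Ccnb1 had none. They had 74 probe sets on the first of 2 Affymetrix oligonucleotide arrays, here array A, and 15 on the second, array B.

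Total RNA of the node was measured at days 1, 2, 3, 27 and 35 of treatment and in mice given PBS, labelled day 0, with 3 samples per group and array and 36 measurements in all. The series title names the agent sLTbetaR-Ig, an immunoglobulin fusion of the receptor that binds its ligands in place of the cell's own receptor. No strain, age or sex of the mice is given, and there is no group with a control immunoglobulin or with PBS at a later day, so treatment, time in the experiment and exposure to a foreign protein cannot be told apart. Separate mice are not stated for the replicates, so the p-values cover only the spread between the samples at hand, which may be technical.

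A dividing cell first loads the ring-shaped MCM helicase onto DNA, then copies the DNA with polymerases held by the clamp PCNA, and then condenses and separates the chromosomes. Cyclins bound to CDK1 drive the entry into mitosis, and a ubiquitin ligase, the anaphase-promoting complex, ends it. In lymph nodes the dividing cells include activated lymphocytes, among them the B cells of germinal centres. The measurements are of whole nodes, in which fewer dividing cells and less RNA per cell cannot be told apart.

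Names ending in _s_at or _x_at mark probe sets that may also bind other transcripts. Values are the intensities deposited by the authors, on a linear scale that cannot be compared between probe sets. Tests were made on log2 intensities with limma over all probe sets bright enough to test, 12231 on array A and 12516 on array B, and a change was called at an adjusted p (Benjamini-Hochberg) below 0.05. Changes are given as log2 treated minus PBS, or as late (the mean of days 27 and 35) minus early (the mean of days 1, 2 and 3). On array A 48 of the 74 member probe sets were bright enough, for 32 genes, and on array B 5 of 15, for Bub1b, Cenpa, Gins2, Mcm5 and Top2a. Together they cover 33 of the 42 genes. Besides Ccnb1, the loading factor Cdc6, the thymidylate synthase Tyms and the mitotic kinases Aurkb and Bub1 had no tested probe set. Nor had the motor proteins Kif11 and Kif20a and the spindle proteins Prc1 and Tacc3. None of these is described further, except Tacc3 where all probe sets were tested.

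Markers of lymph node cells were measured above the floor. Every measured marker of B cells, T cells, follicular dendritic cells and high endothelial venules lay above 122.6, the intensity floor of array A, on all 18 arrays. So did every measured fat cell marker and some of pancreas (such as Prss2) and intestine (such as Lgals4). The floor is percentile 20 of the table, so passing it does not tell which tissue was sampled. Of 8 tested markers of the follicular dendritic cells and venules, 5 were lower at days 27 and 35 than in PBS. In the same comparison 1 of 9 myeloid markers was lower and 3 were higher, 4 of 7 markers of stroma and matrix were higher, 1 of 6 erythroid and 2 of 8 fat cell markers were lower, and none of 3 pancreatic and 1 intestinal markers was called. The median intensity per array lay between 273 and 299.5 for array A, and between 149.8 and 165.2 for array B.

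Small messages of another kind moved with the late days. Of 39 tested small subunits of the respiratory chain, 31 were lower at days 27 and 35 than in PBS, and none was higher. Their median per sample lay between -0.62 and -0.15 (log2 against the PBS mean) at days 27 and 35, and between -0.01 and 0.01 in PBS. Day 3 replicate 3, at -0.44, stood apart from the other early samples, which lay between -0.06 and 0.08. The log2 ratio of the 3′ to the 5′ control probe sets of beta-actin, a measure of RNA integrity and labelling, ran from 0.08 to 0.19 at days 27 and 35, and from -0.03 to 0.06 in PBS. The subunits and the beta-actin ratio separate late samples from PBS without overlap, so their part in the late changes cannot be told apart from the day. Late and early samples overlapped on both, with a beta-actin ratio from 0.01 to 0.13 at day 3. For Gapdh the 3′ to 5′ ratio overlapped between late samples and PBS, at 0.03 to 0.11 at day 27 and -0.03 to 0.08 at day 35, against -0.01 to 0.02. It averaged 0.09, 0.05 and 0.10 at days 1, 2 and 3.

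The first 3 days brought no called change in any member. On array A 0 of 48 probe sets were called by limma at day 1, where 0.0164% of all tested probe sets were called, 0 at day 2 (0.114% of all) and 0 at day 3 (0.556% of all). The mean of days 1 to 3 also gave 0, against 0.155% of all. On array B 0 of 5 were called at days 1, 2 and 3 and in their mean, where 0.00799%, 0.024%, 0.0799% and 0.032% of all were. Without adjustment, 1, 5, 12 and 6 of the 48 had a p below the same threshold in these comparisons. The same count over all tested probe sets was not made, here or for the unadjusted counts below. The median change of the 48 was 0.05, 0.05, 0.11 and 0.07, and that of all tested probe sets 0.02, 0.03, 0.02 and 0.02. At day 1 the 95% interval of 47 of the 48 lay within 0.5 of no change, and at day 3 that of 40. When arrays were weighted by their quality, 6 members were called at day 2, where 4.38% of all probe sets then were, and 2 at day 3, where 3.08% were, all higher, with Fen1 among them on both days.

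The day 3 values with the lowest adjusted p were those of Fen1 (1421731_a_at), Cks1b (1416698_a_at) and Lig1. Fen1, the flap endonuclease that trims these fragments, stood at 369, 397 and 485 (1421731_a_at) at day 3, against 334, 327 and 336 in PBS samples, a log2 difference of 0.32 (SE 0.087, adjusted p = 0.142). The 3 values of day 3 all lay above those of PBS, with replicate 3 highest. Its other probe set (1436454_x_at) stood at 1512, 1514 and 1528 at day 3, against 1526, 1359 and 1307, so the groups overlapped. Lig1, the ligase that joins the fragments, stood at 605, 572 and 719 at day 3, against 545, 493 and 473 in PBS, a difference of 0.32 (SE 0.096, adjusted p = 0.197). Cks1b stood at 445, 481 and 406 at day 3, against 556, 532 and 654 in PBS, a difference of -0.38 (SE 0.11, adjusted p = 0.181) with no overlap. Day 3 replicate 3, the sample that stood apart above, was also the highest of the 18 samples for Top2a, Mki67 and Mcm6.

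At days 27 and 35 a few members were lower than in PBS and most were not called. On array A 6 of 48 probe sets, of 5 genes, were called at day 27, all lower, where 3.18% of all tested probe sets were called and 2.6% were called lower. At day 35 the same number was called, again 6 lower, of 5 genes, against 7.36% called and 5.58% called lower among all. The mean of days 27 and 35 gave 7 lower and 1 higher, of 7 genes, or 16.7% of the 48, against 8.34% called and 5.76% called lower among all. On array B 0 of 5 were called in each of these comparisons, where 0.328%, 3.59% and 3.11% of all were. The median change of the 48 was -0.03 at day 27, 0.03 at day 35 and 0.02 for their mean, next to 0.05, 0.03 and 0.04 for all probe sets. When arrays were weighted by their quality, 19 were called at day 35, 7 of them lower, with Cenpa of array B among them. Of all array A probe sets 24.9% then were. Without PBS replicate 3 the day 35 count was 3, and the share of all probe sets in that fit was not counted. With the respiratory chain subunits as covariate the day 35 count was 2, both on array B and none of the 6. In that fit 0.0818% of all array A probe sets were called, and the share on array B was not counted. With the RNA quality ratios as covariate the day 35 count was 1, where 0.319% of all array A probe sets were called. The genes lower at both days were Cks1b, Cks2, Dut, Pole4 and Hmgb2.

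**Figure D1:**
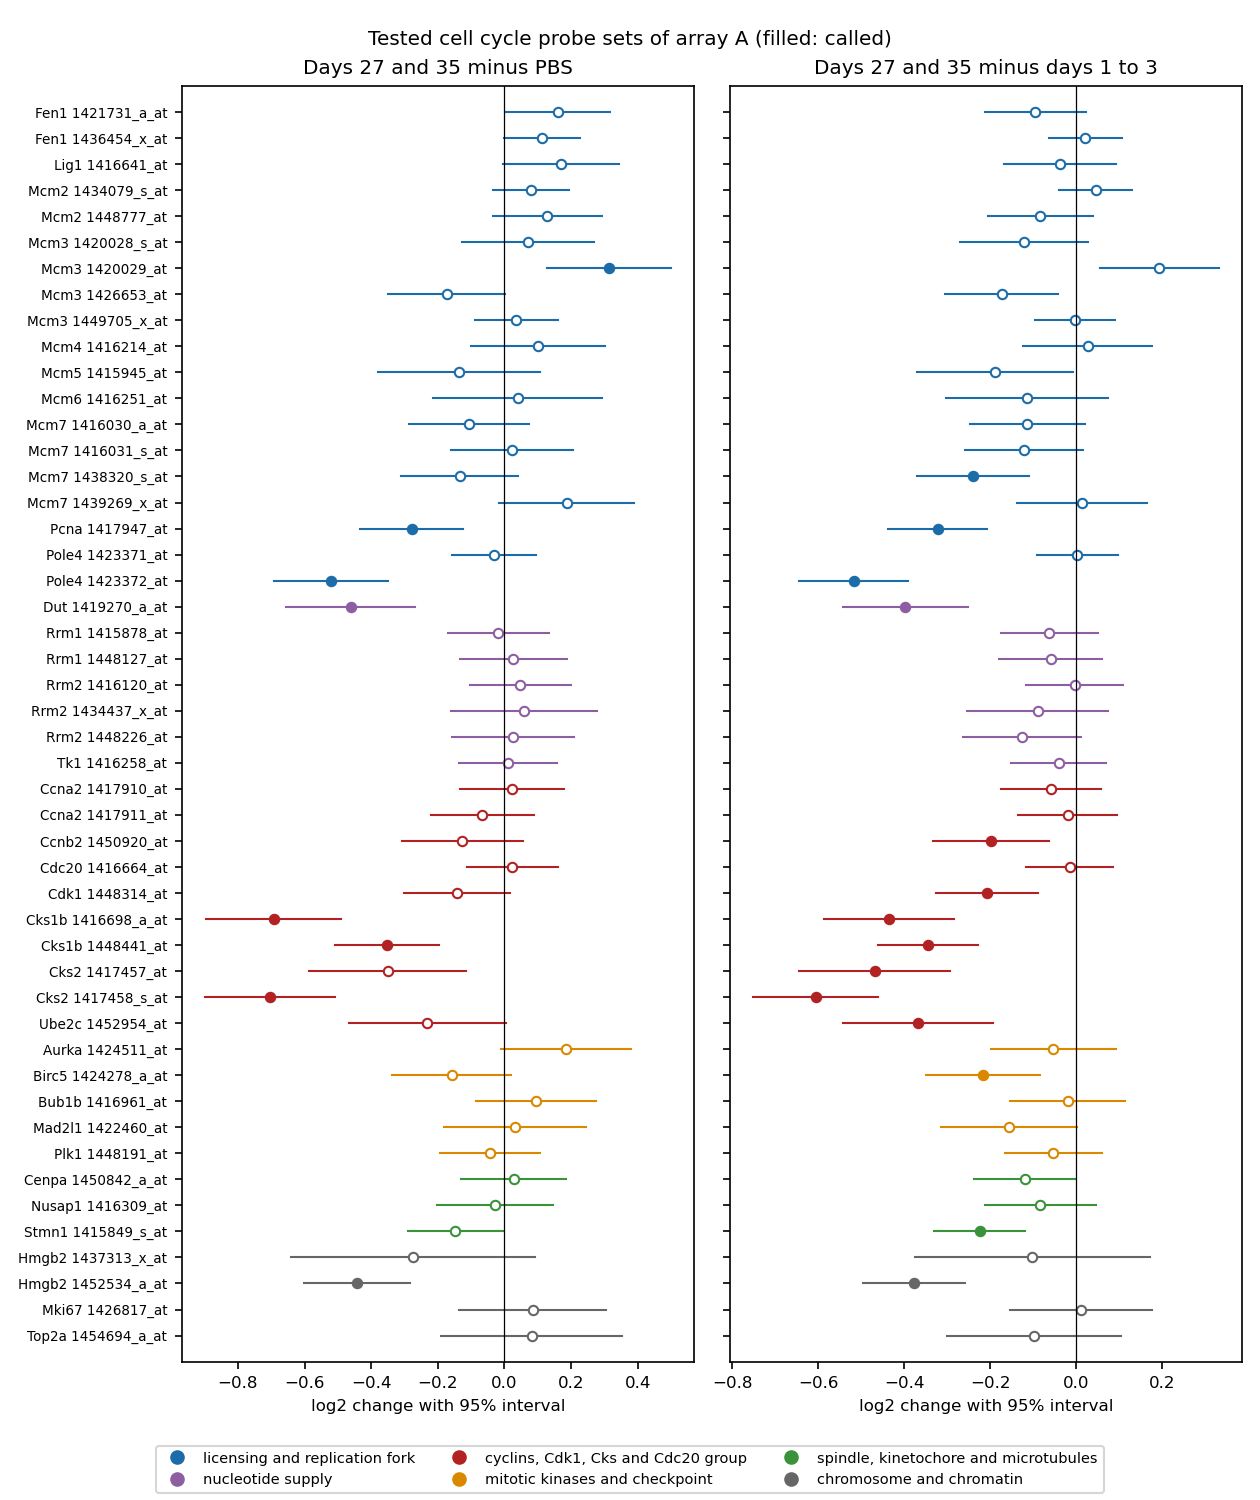
Log2 change with its 95% interval for the 48 tested member probe sets of array A, grouped by role and coloured by group, for days 27 and 35 minus PBS (left) and minus days 1 to 3 (right). Filled points are called by limma, 8 on the left, of which 1 (Mcm3) lies above 0, and 14 on the right, all below 0.

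Among the cyclins, Cdk1 and their partners, the Cks subunits moved furthest. Cks1b and Cks2 are small proteins that bind cyclin-dependent kinases and help them to find their substrates. Cks1b (1416698_a_at) stood at 335, 364 and 321 at day 27 and at 349, 444 and 347 at day 35, against 556, 532 and 654 in PBS samples. At days 1, 2 and 3 it stood at 516, 588 and 461, at 483, 545 and 454, and at 445, 481 and 406. All 6 late values lay below all PBS values, and day 3 replicate 3 was the only early value below the highest late one. It fell by 0.77 at day 27 (SE 0.11, adjusted p = 0.00103) and by 0.62 at day 35 (SE 0.11, adjusted p = 0.00296), a ratio of 0.587 and of 0.652 to PBS.

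The other Cks1b probe set (1448441_at) stood at 348, 412 and 338 at day 27 and at 398, 376 and 397 at day 35, against 512, 461 and 473 in PBS. It fell by 0.40 (SE 0.086, adjusted p = 0.0139) and by 0.30 (SE 0.086, adjusted p = 0.0369), again with no overlap. Its call at day 35 ended whichever of the 6 samples was left out, with adjusted p up to 0.145, and its call at day 27 ended in 3 such fits (up to 0.0758), which left out the first replicate of PBS, or the first or last of day 27. The fall averaged over both days was called in each of the 9 fits that left out 1 sample.

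Cks2 (1417458_s_at) stood at 233, 338 and 265 at day 27 and at 270.4, 284 and 269.8 at day 35, against 479, 405 and 462 in PBS samples. At days 1, 2 and 3 it stood at 419, 497 and 415, at 452, 441 and 409, and at 394, 369 and 384. The late samples all lay below the PBS and the early samples, and day 27 replicate 2 was the highest of them. Cks2 fell by 0.70 at day 27 (SE 0.11, adjusted p = 0.00149) and by 0.70 at day 35 (SE 0.11, adjusted p = 0.00108), a ratio of 0.615 and 0.614. This probe set passed the brightness filter on 12 PBS and early arrays and on 1 late array. It was thus tested mainly through groups in which it is high. With all probe sets tested the adjusted p was 0.00983 at day 27 and 0.00759 at day 35. The other Cks2 probe set (1417457_at) stood at 329, 468 and 367 at day 27 and 410.4, 415 and 405 at day 35, against 542, 470.1 and 507, all late values below all PBS values. With changes of -0.40 (adjusted p = 0.103) and -0.30 (adjusted p = 0.171) it was not called against PBS on either day.

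Promoters of the Cks genes and of Top2a and Mki67 are shown because the first pair fell late and the second was not called. The windows run from 250 bases before to 50 after the RefSeq start on GRCm38.p6, in the direction of transcription. Capitals mark CCAAT (the CCAAT box) and TTTGAA (the cell cycle homology region, CHR) on either strand, the elements through which late cell cycle genes are known to be controlled. They lie at chr3:89418242-89418541 (minus strand, Cks1b), chr13:51644982-51645281 (plus, Cks2), chr11:99024140-99024439 (minus, Top2a) and chr7:135716330-135716629 (minus, Mki67).
Cks1b: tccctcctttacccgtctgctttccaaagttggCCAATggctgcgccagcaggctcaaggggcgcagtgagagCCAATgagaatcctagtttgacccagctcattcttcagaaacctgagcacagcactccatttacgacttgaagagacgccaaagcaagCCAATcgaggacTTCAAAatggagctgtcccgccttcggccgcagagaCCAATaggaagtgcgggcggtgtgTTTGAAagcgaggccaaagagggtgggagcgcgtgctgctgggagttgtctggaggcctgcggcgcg
Cks2: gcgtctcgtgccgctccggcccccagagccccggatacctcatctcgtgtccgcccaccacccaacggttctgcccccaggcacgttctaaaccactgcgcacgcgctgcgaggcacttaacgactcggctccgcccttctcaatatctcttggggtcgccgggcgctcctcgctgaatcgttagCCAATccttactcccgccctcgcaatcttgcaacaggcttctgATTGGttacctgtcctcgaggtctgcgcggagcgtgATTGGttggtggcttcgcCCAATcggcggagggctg
Top2a: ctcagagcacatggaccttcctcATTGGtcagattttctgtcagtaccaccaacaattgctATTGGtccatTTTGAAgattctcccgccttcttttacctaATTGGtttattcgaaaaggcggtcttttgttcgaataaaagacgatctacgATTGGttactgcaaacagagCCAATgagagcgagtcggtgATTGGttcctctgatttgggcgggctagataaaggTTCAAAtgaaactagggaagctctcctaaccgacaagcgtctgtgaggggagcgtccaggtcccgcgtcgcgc
Mki67: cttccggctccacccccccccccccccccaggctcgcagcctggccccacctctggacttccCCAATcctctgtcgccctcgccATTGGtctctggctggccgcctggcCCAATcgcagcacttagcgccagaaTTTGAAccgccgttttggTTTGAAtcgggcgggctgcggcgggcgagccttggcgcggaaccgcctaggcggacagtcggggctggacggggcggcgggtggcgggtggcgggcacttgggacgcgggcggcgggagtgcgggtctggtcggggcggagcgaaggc

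Cks1b holds 4 CCAAT boxes and 2 CHR matches, Cks2 4 and 0, Top2a 6 and 2, and Mki67 3 and 2. Windows were given for 36 of the 42 genes, 42 windows in all. CCAAT was in 27 of them, or 64.3%, next to 37.4% of all 32851 windows, and TTTGAA in 17, or 40.5%, next to 17.9%. Another motif, TTTNNCGC, bound by E2F factors, was in 10, or 23.8%, next to 5.17%. Both strands were searched for each motif. Among the other genes with a window that were lower late than early, Hmgb2 holds 4 CCAAT boxes and 2 CHR matches, Cdk1 and Ccnb2 3 and 2 each, Ube2c 6 and 1, and Pcna 1 and 0. The windows of Mcm7 hold 1 and 3 CCAAT boxes and no CHR match, and those of Dut, Pole4 and Birc5 hold neither motif. Genes that fell and genes that were not called both held matches, and a match is a run of letters and not a site of binding.

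The cyclins and their ubiquitin step were not called against PBS. Ube2c, the ubiquitin-conjugating enzyme of the anaphase-promoting complex, stood at 334, 410.4 and 323 at day 27 and 388, 376 and 296 at day 35, against 507, 365 and 381 in PBS samples. PBS replicate 1 was far above the other PBS samples, and the groups overlapped. The mean late change was -0.23 (SE 0.11, adjusted p = 0.217). The late difference of Cdk1, the mitotic kinase itself, was -0.14 (95% interval -0.30 to 0.02) and that of cyclin B2 (Ccnb2) -0.13 (-0.31 to 0.05). Cyclin A2 (Ccna2) stood at 0.02 and -0.07 on its 2 probe sets. Cdc20, the activator of the anaphase-promoting complex, stood at 0.02 (-0.11 to 0.16).

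In nucleotide supply, Dut alone was called. It encodes dUTPase, which keeps uracil out of DNA. Dut (1419270_a_at) stood at 174, 215 and 176 at day 27 and 206, 202 and 226 at day 35, against 278, 241 and 306 in PBS samples. At days 1, 2 and 3 it stood at 269, 268 and 266, at 289.9, 291 and 235, and at 244, 242 and 258, so the late samples were below all others. Dut fell by 0.55 at day 27 (SE 0.11, adjusted p = 0.0079) and by 0.37 at day 35 (SE 0.11, adjusted p = 0.0387). The day 35 call ended in 3 of the 5 fits with 1 sample left out (adjusted p up to 0.147), which lacked PBS replicate 1, or the first or second replicate of day 35. The probe set passed the brightness filter through 3 arrays, 1 of PBS and 2 of day 2, and no late array, so it was tested only because of groups in which it is high. With all probe sets tested the adjusted p was 0.023 at day 27 and 0.0708 at day 35. The other Dut probe set (1419269_at) was not bright enough to test, though above the floor on all 18 arrays. Its means were 199 in PBS, 217 at day 27 and 201 at day 35, so the fall was not seen there.

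The other genes of nucleotide supply were close to PBS. The late change of ribonucleotide reductase was -0.02 and 0.03 on the probe sets of its large subunit Rrm1, and 0.05, 0.06 and 0.03 on those of its small subunit Rrm2. Thymidine kinase Tk1 stood at 419, 502 and 414 at day 27 and 487, 455 and 458 at day 35, against 448, 425 and 482 in PBS, a change of 0.01 (95% interval -0.14 to 0.16). Their groups overlapped.

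At the replication fork the clamp and a polymerase subunit were lower. Pcna, the sliding clamp, stood at 1571, 1357 and 1643 at day 27 and 1617, 1717 and 1439 at day 35, against 1849, 1780.3 and 2029 in PBS samples. Its values were 1928, 2073 and 1830.5 at day 1, 1959, 1863 and 1971 at day 2, and 1862, 1895 and 2093 at day 3. Every late value lay below every PBS and early value. The mean late change of Pcna was -0.28 (SE 0.074, adjusted p = 0.0251), and this call ended without PBS replicate 1 or PBS replicate 3 (adjusted p up to 0.17). On the days taken alone Pcna was not called, at -0.31 for day 27 (adjusted p = 0.0527) and -0.25 for day 35 (adjusted p = 0.0863).

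Pole4, a small histone-fold subunit of DNA polymerase epsilon, gave a different answer on each of its probe sets. On 1423372_at it stood at 234, 239 and 185 at day 27 and 209.8, 214 and 244 at day 35, against 331, 298 and 319 in PBS samples, a fall of 0.53 (SE 0.093, adjusted p = 0.00377) and of 0.51 (SE 0.093, adjusted p = 0.00323). The 9 arrays above the brightness filter were those of PBS and days 1 and 2, so the probe set was tested only through groups in which it is high. With all probe sets tested the adjusted p was 0.0125 and 0.0123. On 1423371_at it stood at 288, 297 and 301 at day 27 and 286, 283 and 286 at day 35, against 303, 295 and 291. The late change there was -0.03, with a 95% interval from -0.16 to 0.09, so the fall seen by the first probe set was not measured by the second.

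The MCM helicase, made of Mcm2 to Mcm7, gave 1 called value against PBS. Mcm3 (1420029_at) stood at 420.0, 506 and 457 at day 27 and 488, 443 and 458 at day 35, against 392, 394 and 331 in PBS samples, a mean late rise of 0.31 (SE 0.089, adjusted p = 0.0353). The groups did not overlap, but the other Mcm3 probe sets stood at -0.17, 0.04 and 0.07 and were not called. The call ended in 5 of 9 fits with 1 sample left out (adjusted p up to 0.239), which lacked any of the PBS samples, day 27 replicate 3 or day 35 replicate 1.

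The other helicase subunits were not called against PBS. Their late changes were 0.08 and 0.13 for Mcm2, 0.10 for Mcm4, -0.14 for Mcm5 on array A and -0.37 on array B (adjusted p = 0.138), 0.04 for Mcm6, and between -0.13 and 0.19 for the 4 probe sets of Mcm7. Gins2, part of the active helicase, stood at 270.1, 241 and 225 at day 27 and 227, 225 and 243 at day 35 on array B, against 265, 232 and 271 (-0.10, adjusted p = 0.422). Fen1 stood at 0.16 (adjusted p = 0.204) and 0.11 (adjusted p = 0.21), and Lig1 at 0.17 (adjusted p = 0.224).

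Of the chromosome proteins, Hmgb2 was lower and Top2a and Mki67 were not called. Hmgb2, a DNA-bending protein abundant in dividing cells, stood at 753, 703 and 725 (1452534_a_at) at day 27 and 776, 796 and 784 at day 35, against 969.7, 1025 and 1087 in PBS samples. The values were 994, 1208 and 903 at day 1, 1018, 877 and 964 at day 2, and 948, 988 and 967 at day 3. Late samples all lay below every PBS and early sample. Hmgb2 fell by 0.50 at day 27 (SE 0.087, adjusted p = 0.00381) and by 0.39 at day 35 (SE 0.087, adjusted p = 0.0116), and the day 35 call ended without PBS replicate 3 (adjusted p = 0.0636). Its second probe set (1437313_x_at) had a late difference of -0.27 (95% interval -0.64 to 0.09, adjusted p = 0.353), with 1 low value of 205 among the day 1 samples.

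**Figure D2:**
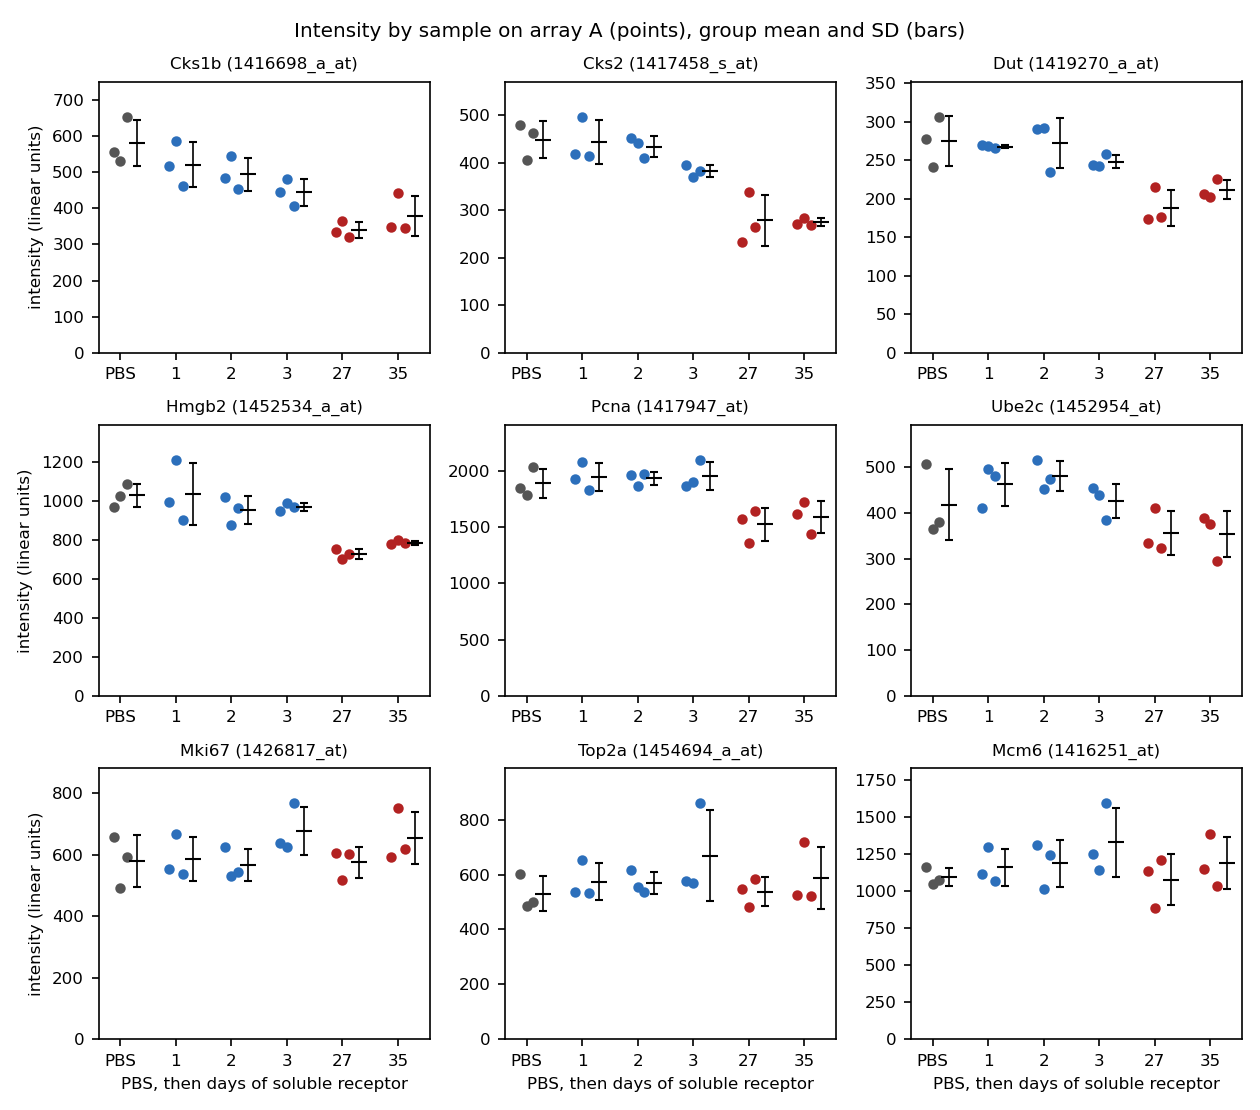
Intensity on a linear scale from 0 for 9 probe sets of array A, with 1 point per sample and the mean and SD (n = 3) of each group, in the order PBS and days 1, 2, 3, 27 and 35. Late samples of Cks1b, Cks2, Dut, Hmgb2 and Pcna lie below all PBS samples, those of Mki67, Top2a and Mcm6 overlap them, and day 3 replicate 3 is the highest point for the last 3 genes.

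Mki67, the proliferation antigen Ki-67, stood at 606, 518 and 603 at day 27 and 593, 751 and 618 at day 35, against 659, 491 and 593 in PBS samples. Its late change was 0.08, with a 95% interval from -0.14 to 0.31. Top2a, the topoisomerase that untangles replicated DNA, stood at 548, 481 and 584 at day 27 and 525, 719 and 520.1 at day 35, against 603, 487 and 500.1 (1454694_a_at), a change of 0.08 (-0.19 to 0.35). On array B Top2a (1442454_at) stood at 267, 253 and 165 at day 27 and 235, 217 and 184 at day 35, against 320.5, 259 and 229, a change of -0.30 (-0.64 to 0.05, adjusted p = 0.322). The groups overlapped on both arrays. With the replicate number as a block Top2a was called lower on array B at day 35 (-0.34, adjusted p = 0.0229) and in the late mean (adjusted p = 0.022).

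The mitotic kinases, the checkpoint and the spindle gave no called value against PBS. Late changes were 0.19 for Aurora kinase A (Aurka, adjusted p = 0.235), -0.04 for Polo-like kinase Plk1, 0.09 on array A and -0.20 on array B for the checkpoint kinase Bub1b, and 0.03 for the checkpoint protein Mad2l1. Survivin (Birc5), of the chromosomal passenger complex, stood at -0.16 (adjusted p = 0.266). In the spindle group Stmn1, which takes microtubules apart, stood at -0.15 (adjusted p = 0.192), Nusap1, which bundles them, at -0.03, and the centromeric histone Cenpa at 0.03 on array A and -0.16 on array B.

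No member was called between day 35 and day 27. On arrays A and B 0 of 48 and 0 of 5 were called by limma, as were 0% of all tested probe sets on each array, and 3 of the 48 had an unadjusted p below the threshold. Those were Fen1 (1421731_a_at, 0.24, adjusted p = 0.62) and both probe sets of Mcm2 (0.16 and 0.22, adjusted p = 0.667 and 0.672), each higher at day 35.

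On array A more members, and more of all probe sets, were called between the late and the early days than between the late days and PBS. The share of all array A probe sets was 15.4% in place of 8.34%. The early mean also rests on more samples than PBS does. Of the 48 on array A 14 were called, all lower late, from 12 genes, or 29.2%, next to 15.4% called and 10.4% called lower among all tested probe sets. On array B 0 of 5 were called, next to 1.66% of all. The median was -0.10 for the 48 and 0.02 for all. Of the 14, 3 of 19 belonged to the fork, 1 of 7 to nucleotide supply, 7 of 10 to the cyclins and their partners, 1 of 5 to the kinases and checkpoint, 1 of 3 to the spindle and 1 of 4 to the chromosome proteins.

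The genes already described fell by 0.61 and 0.47 (Cks2, adjusted p = 2.06e-05 and 0.000862), 0.52 (Pole4, 1423372_at), 0.44 and 0.34 (Cks1b), 0.40 (Dut), 0.38 (Hmgb2, 1452534_a_at) and 0.32 (Pcna, adjusted p = 0.000584). Ube2c joined them, with 334, 410.4 and 323 at day 27 and 388, 376 and 296 at day 35, against 409.8, 496 and 481 at day 1, 516, 452 and 474 at day 2, and 454, 438 and 384 at day 3. It fell by 0.37 (SE 0.084, adjusted p = 0.00541), although day 27 replicate 2 lay above 2 of the early samples and day 35 replicate 1 above 1 of them.

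Smaller falls were called for 5 further genes. Stmn1 stood at 1033, 1058 and 1082 at day 27 and 1072, 1160.0 and 1066 at day 35, against 1212, 1381 and 1194, 1296, 1099 and 1219, and 1239, 1312 and 1412 at days 1, 2 and 3, a fall of 0.22 (SE 0.05, adjusted p = 0.00499). The groups overlapped only through day 35 replicate 2, which lay above day 2 replicate 2. Mcm7 fell by 0.24 on 1438320_s_at (adjusted p = 0.0138), and its other probe sets, at -0.11, -0.12 and 0.01, were not called. Birc5 fell by 0.22 (adjusted p = 0.0271), Cdk1 by 0.21 (adjusted p = 0.0175) and Ccnb2 by 0.20 (adjusted p = 0.0452).

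Birc5 passed the brightness filter on 8 PBS and early arrays and on no late one, and with all probe sets tested its adjusted p was 0.046. Ccnb2 passed it on 9 PBS and early arrays and on 1 late array, so it was tested mainly through groups in which it is high. With all probe sets tested its adjusted p was 0.0791, and the call ended. The calls of Birc5, Ccnb2 and Cdk1 depended on single samples. That of Birc5 ended in 6 of 15 fits with 1 sample left out (adjusted p up to 0.0733), that of Ccnb2 in 9 of 15 (up to 0.0998), and that of Cdk1 without day 27 replicate 1 (0.0575). The call of Mcm7 held with each single sample left out and ended (0.0728) when day 3 replicate 3, day 27 replicate 2 and day 35 replicate 3 were left out together. The PBS samples took no part in this comparison, and neither Mki67 (0.01, 95% interval -0.15 to 0.18) nor Top2a (-0.10, -0.30 to 0.11) was called.

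Messages described as short were set beside long ones, with the brightest tested probe set for each gene. The short ones were Cks2, Ube2c and Stmn1, and the long ones Top2a, Mki67 and Mcm2 to Mcm7. No message lengths were measured here, and the comparison carries no test. The median change of the 3 short genes was -0.22 at day 27 and -0.24 at day 35, and that of the 8 long genes -0.02 and 0.13. For the mean of the late days the short genes stood at -0.23 and the long ones at 0.06, a difference of -0.29. In late against early the medians were -0.37 and -0.05, a difference of -0.32. At days 1, 2 and 3 the difference between short and long was 0.05, 0.08 and -0.01.

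**Figure D3:**
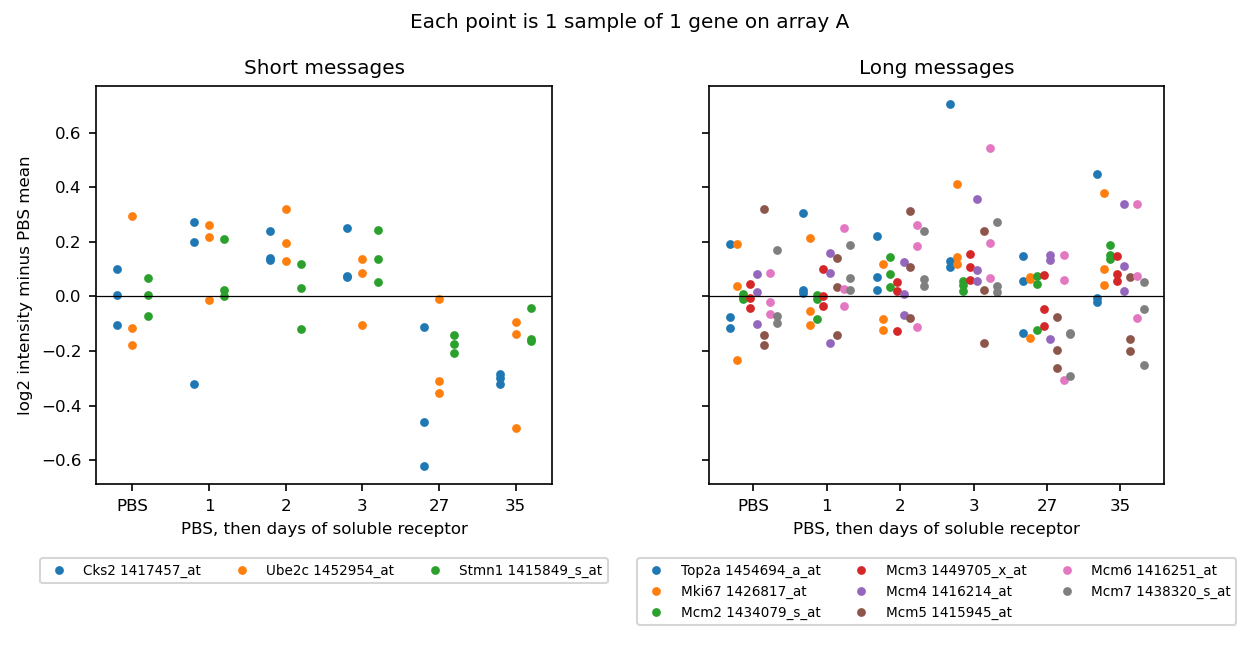
Log2 intensity of each sample minus the PBS mean of the same probe set, for the 3 short genes (left) and the 8 long genes (right), with 1 point per sample and gene. At days 27 and 35 all points of the short genes lie below 0, and those of the long genes lie on both sides of it, as they do in PBS.

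The difference was not equal in all samples. Short minus long was -0.36, 0.04 and -0.43 in the 3 samples of day 27 and -0.19, -0.38 and -0.36 in those of day 35, against -0.03, -0.02 and -0.04 in PBS. Day 27 replicate 2 lay among the PBS and early samples, and without it the day 27 difference was -0.396 in place of -0.21. The early samples ran from -0.07 to 0.22. The same sample had the highest late value of the respiratory chain subunits, at -0.15. Day 3 replicate 3, with -0.44 for those subunits, had -0.07 for short minus long.

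**Figure D4:**
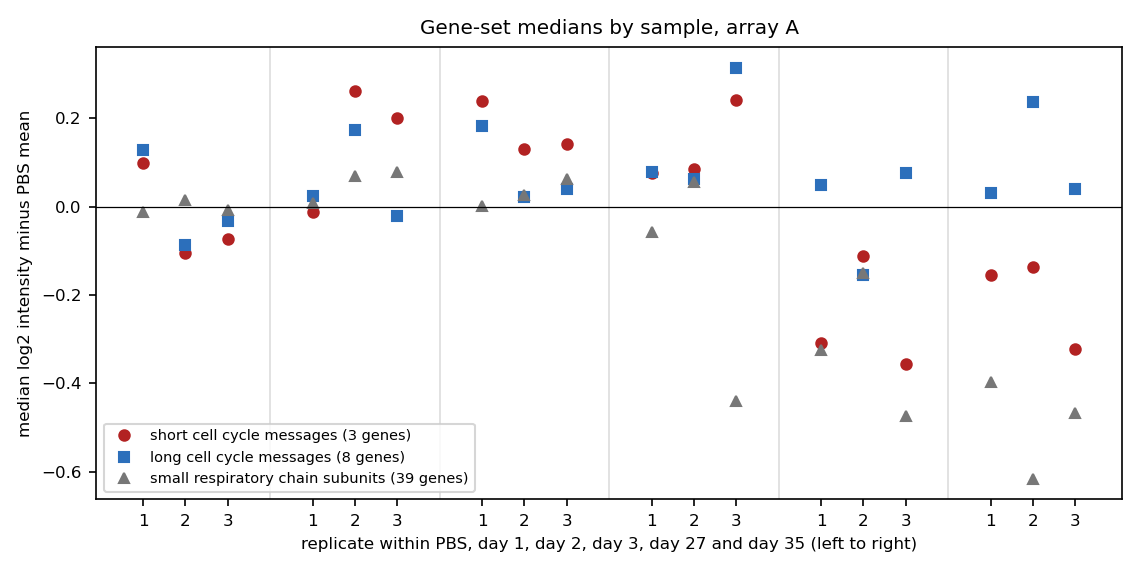
Median log2 intensity minus the PBS mean in each of the 18 samples of array A, for the short genes, the long genes and 39 small respiratory chain subunits. The subunits lie below 0 in all 6 late samples and in day 3 replicate 3, while the long genes range from -0.16 to 0.24 late.

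Entering the respiratory chain subunits, or the control ratios of RNA quality, as a covariate changed many calls. It did so over the whole array. The share of all array A probe sets called at day 35 went from 7.36% to 0.0818% with the subunits and 0.319% with the ratios. In late against early it went from 15.4% to 4.95% and 7.64%, and at day 27 from 3.18% to 4.28% and 0.262%. With the subunits as covariate 23 of the 34 called values named here were no longer called, and the difference between short and long turned to 0.0668 for the late days against PBS and to 0.068 against early. The size of the 23 was smaller in 17 and as large or larger in 6, with a median of 0.859 of the size without the covariate and a range from 0.107 to 1.95. Cks1b (1448441_at) stood at -0.03 at day 35 in that fit, Hmgb2 at -0.41 and Ccnb2 late against early at -0.38. Cks2 (1417458_s_at), Hmgb2, Cks1b (1416698_a_at) and Dut were still called at day 27, none of the 6 at day 35, Cks2 (1417458_s_at) and Pcna for the late mean, and Cks2 (1417458_s_at), Pcna, Hmgb2, Stmn1 and Mcm7 in late against early. In the same fit 11 member probe sets were called in late against early, 5 of them also called without the covariate. The added calls were all lower late. They were Top2a (-0.62, adjusted p = 0.0162), Mcm6 (-0.56, adjusted p = 0.0242), Rrm1 (1415878_at, -0.31), Rrm2 (1434437_x_at, -0.46), Mcm2 (1448777_at, -0.33) and Mcm5 of array B (-0.60). With the mean of the beta-actin and Gapdh control ratios as covariate 17 of the 34 were no longer called, while the size of these 17 ran from 0.84 to 1.23 of that without them, with a median of 1.01. The late difference between short and long grew to -0.476. The subunits and the beta-actin ratio moved with the day, without overlap between late samples and PBS but with overlap between late and day 3 samples. The Gapdh ratio overlapped between late samples and PBS.

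Other genes of the pathway, from lists of further replication, mitosis and growth phase genes, were mostly not called. Among 28 tested replication genes, Rpa3, a subunit of the protein that coats single-stranded DNA, fell by 0.35 at day 27 (adjusted p = 0.01) and by 0.31 at day 35 (adjusted p = 0.0124), and no other was called against PBS. Late against early 3 were lower and 0 higher, Rpa3 (-0.29), Uhrf1, which keeps methylation on copied DNA (-0.27), and Slbp, which binds histone messages (-0.18). These are 10.7% of the list, near the 10.4% called lower among all probe sets. Among 34 tested mitosis genes, the condensin subunit Ncapg2 was higher at day 35 (0.42, adjusted p = 0.0239), and the kinetochore protein Cenpf higher late than early (0.20, adjusted p = 0.0198). The list medians in late against early were -0.01 and 0.05, next to 0.02 for all probe sets.

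Of 24 tested cyclins, kinases, inhibitors and pocket proteins of the G1 phase, 0 were called by limma against PBS at days 1, 2, 3, 27 and 35, with 2, 4, 3, 4 and 6 at an unadjusted p below the threshold. In late against early the D-type cyclins, which start the cycle, did not run together. Ccnd1 was higher late (0.33, adjusted p = 0.00217), and Ccnd2 (-0.29, adjusted p = 0.000221) and Ccnd3 (-0.18, adjusted p = 0.0294) were lower. The antiproliferative Btg2 was lower too (-0.17, adjusted p = 0.0349). These 4 genes are 16.7% of the list, near the 15.4% called among all.

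Germinal centre B cells, a main dividing population of the node, gave no called marker. Of 15 listed markers 10 were measured and 6 were bright enough to test, and 0 were called by limma in each comparison, with at most 1 at an unadjusted p below the threshold. Their summed intensity ran from 4949 to 5448 at day 27 and from 4947 to 5564 at day 35, against 4882 to 5354 in PBS. The median change of the 6 was -0.04 at day 27 and 0.09 at day 35. Mybl1 and Ung were below the floor on all 18 arrays. Of 10 tested B cell markers 1 was lower at days 27 and 35 than in PBS, and of 12 T cell markers 2 were lower and 1 higher. Of 8 tested plasma cell markers 1 was called, higher late, and their median change was 0.09. The part of these cells in the members' values was not tested.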

How the data were processed

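The files hold linear intensity values deposited by the authors, 1 for each probe set of an array. Software, background correction and scaling behind them are not stated in the labels, and they were analysed without rescaling. Genes were named from the platform annotation, only for probe sets with 1 symbol, 22626 and 22511 probe sets on arrays A and B being no controls. A floor was set at percentile 20 of each table (122.6 and 76.57), values were taken to log2, and probe sets were tested where they exceeded the table's median (286.7 and 157.9) on at least 3 of 18 arrays. Each table was fitted with limma 3.58.1 in R 4.3.3 (lmFit, eBayes with trend, 6 groups, no covariate), with two-sided p-values adjusted by Benjamini-Hochberg over all tested probe sets of a table and comparison. The fit was tested on simulated data. The number of arrays limits the precision. For 1 sample of day 1 (array B) the source name carries words foreign to the study, so title and description set its group.

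Members, lists, tests and naming rule were all chosen with earlier results of these data known. Named with values are the genes of the length comparison, every called member, the 2 members of highest mean intensity in each role group and up to 4 called genes of each pathway list. The genes of lowest adjusted p at day 3 and those of day 35 against day 27 were named after their values were seen. Alternatives covered scaling, floor, filter, variance trend, array weights, a replicate block, the groups fitted, 2 covariates, the probe set standing for a gene and the omission of samples. Promoters and motif shares come from RefSeq windows. Replicate numbers were checked for pairing. The mean correlation of deviations was 0.034 on array A and 0.266 on array B for the same number, and -0.016 and -0.133 for different numbers. Pairs of the same number went down to -0.485 and -0.415, and pairs of different numbers to -0.526 and -0.721, so the lowest pairs do not decide the question. The main fit took the samples as unpaired, although same-numbered samples of array B were on average more alike.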

Additional observations from a re-analysis of the deposited data

Results flagged for a closer look

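Late and early treatment, each against PBS, moved 14 member probe sets of array A unequally by a limma test of that difference (adjusted p below 0.05), all lower late than early. The log2 differences were -0.61 for Cks2 (1417458_s_at) and -0.47 for its other probe set, -0.52 for Pole4 (1423372_at), -0.44 and -0.34 for Cks1b, -0.40 for Dut and -0.38 for Hmgb2. They were -0.37 for Ube2c, -0.32 for Pcna, -0.24 for Mcm7 (1438320_s_at), -0.22 for Stmn1, -0.22 for Birc5, -0.21 for Cdk1 and -0.20 for Ccnb2. Dut, Pole4 and Birc5 passed the brightness filter on 0 late arrays, and Cks2 (1417458_s_at) and Ccnb2 on 1. These were tested mainly through groups in which they are high. With all probe sets tested 15 were called, 13 of them among the 14, where 9.06% of all array A probe sets were. Ccnb2 was lost, Stmn1 (1448113_at) was added lower and Tacc3 (1455834_x_at) higher (0.19, adjusted p = 0.0275). Adjusted p was 0.00311 for Dut, 0.000294 for Pole4 and 0.000454 for Cks2.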

How the results depend on the processing

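No called member value changed sign under any alternative run. Quantile or common median scaling, the lower floor, the fit without a variance trend and array weights kept all 34 called values, and the scalings moved the median of all probe sets by at most 0.06. Of the 34, 4 ended with no filter on dim probe sets, 7 with only the groups compared, 1 without the 3 samples of low array weight, and 36 of 349 values ended with 1 sample left out. The stricter filter kept the 24 it still tested. Array weights, whose estimation stopped short of its convergence tolerance, gave 6 calls at day 2 and 2 at day 3, all higher, 2 in the early mean, 19 at day 35 (7 lower), 16 for the late mean (9 lower) and 1 for day 35 against day 27. In the same comparisons 4.38%, 3.08%, 2.22%, 24.9%, 27% and 3.79% of all array A probe sets were then called. The day 35 count includes Cenpa of array B and the late mean count Mcm5 of array B, where the share was not counted. The calls added at day 35 include Fen1 (0.30), Mcm2 (0.32) and Mki67 (0.38), all higher, while the share of all array A probe sets called there grew to 24.9%. With only the groups compared 3 were called at day 27, where 0.924% of all array A probe sets were. The RNA quality covariate left 2 calls at day 27, 1 at day 35 and 2 for the late mean, where 0.262%, 0.319% and 0.466% of all were called. The small respiratory chain covariate gave 2 at day 35, which were Mcm5 and Bub1b of array B and none of the 6 reported. It gave 4 for the late mean, with Mcm5 and Bub1b of array B again among them. On array A 0.0818% and 2.06% of all were then called, and the share on array B was not counted. Without day 3 replicate 3 and day 27 replicate 2, an alternative chosen after seeing the data, 11 were called at day 35 (7 lower), where 12.9% of all were. The 6 reported were among them, with Fen1 (0.28) and Mcm2 (0.24 and 0.16) higher. With 1 sample left out 3 to 5 were called at day 35 and 5 to 9 for the late mean, the lowest in each without PBS replicate 3. The share of all probe sets called was not counted in those fits, so the drop cannot be set against that of all probe sets.

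Short minus long turned to 0.0628 at day 27, 0.101 at day 35, 0.0668 for the late mean, 0.068 in late against early and 0.117 in day 35 against day 27 with the respiratory covariate. With the RNA quality covariate it was -0.214 at day 3, -0.402 at day 27, -0.554 at day 35 and -0.476 for the late mean. Without the 3 samples of low weight it was -0.396 at day 27 and 0.114 in day 35 against day 27. Without the 2 samples that stand apart it was -0.396 at day 27 and -0.454 in late against early. With 1 sample left out it ran from -0.00856 to 0.191 at day 1 and from -0.396 to -0.131 at day 27. The cause of these shifts was not tested, and the respiratory covariate and the beta-actin ratio moved with the day. A split of all members by message length was not run, since no lengths were given.

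With the replicate number as a block 6 were called at day 27, 6 at day 35, 9 for the late mean and 15 in late against early. Of all array A probe sets 3.34%, 7.54%, 8.11% and 15.7% were called in that fit. Except at day 27 the counts include Top2a of array B, where the share was not counted. The calls of Dut at day 35 and of Ccnb2 late against early ended. Top2a of array B was then called lower at day 35 (-0.34), in the late mean (-0.30) and late against early (-0.23). The main fit took the samples as unpaired on both arrays, though on array B same-numbered samples were on average more alike.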
